A study of Mus musculus with 6 samples.

Results

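The very low density lipoprotein receptor (Vldlr) and 7 genes of its family and machinery were followed in HL-1 cells, a mouse line of atrial tumour origin that keeps features of cardiomyocytes, under low and normal oxygen. The other 7 genes were the receptors Lrp1, Lrp5, Lrp6, Lrp8 and Sorl1, the receptor chaperone Lrpap1 and the ubiquitin ligase Mylip. The members were all probe sets that the platform annotation assigned to 1 of these 8 symbols, which gave 22 of the 45037 probe sets in the table. Confluent cells had been held for 8 hours at 1% oxygen (hypoxia, 3 arrays) or at 21% oxygen (normoxia, 3 arrays), with total RNA hybridised to one-colour Affymetrix arrays. No genotype or agent other than oxygen separated the groups. The labels give 1 cell line and do not say whether the 3 samples of a group came from separate cultures, so p-values reflect only how far these 6 samples spread, and that spread may be technical.

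Receptors of this family bind lipoproteins and other ligands at the cell surface, are internalised by clathrin-coated pits and release their cargo in endosomes. VLDLR binds triglyceride-rich particles carrying apolipoprotein E and works beside lipoprotein lipase in tissues that burn or store fatty acids, the heart among them. LRP5 and LRP6 serve instead as coreceptors of WNT ligands, and the ligase encoded by Mylip, also called IDOL, marks VLDLR and its closest relatives for degradation. A transcript level says nothing of that last step, which acts on the protein.

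Vldlr rose and the rest of the group did not pass the test. All 6 Vldlr probe sets had every hypoxia array above every normoxia array, and the probe set with the highest mean signal rose 4.22-fold. None of the 13 testable probe sets of the other genes passed, and their log2 fold changes (hypoxia minus normoxia on the log2 scale, also written as log2 differences) ran from -0.37 to 0.45. Signals are the authors' MAS5 values on a linear scale with no unit. A probe set was tested where its geometric mean over the 6 arrays exceeded 14.1, the median of all probe sets, and called at an adjusted p under 0.05 (limma with a variance trend, Benjamini-Hochberg over all 22518 probe sets tested). Of the 22 member probe sets 18 were tested, and 3 of them, all of Vldlr, were called higher; among all probe sets tested 0.533% were called higher. As a gene represented by its tested probe set of highest mean signal, Vldlr ranked 20th by log2 fold change of 11332 genes, of which 0.662% were called higher.

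The stretches of DNA just before the start sites of Vldlr, the gene that rose, and Sorl1, a receptor gene that did not pass, are shown because the window of Sorl1 holds the core letters of the hypoxia response element, the site bound by hypoxia-inducible factors, and that of Vldlr does not. Both are RefSeq sequences of the GRCm38.p6 assembly, 250 bases long and written 5′ to 3′ on the strand of the gene. The Vldlr stretch is chr19:27216234-27216483 on the plus strand and that of Sorl1 is chr9:42124298-42124547 on the minus strand. Capitals mark ACGTG or GCGTG on either strand, and the run CACGTG holds ACGTG on both strands.
Vldlr: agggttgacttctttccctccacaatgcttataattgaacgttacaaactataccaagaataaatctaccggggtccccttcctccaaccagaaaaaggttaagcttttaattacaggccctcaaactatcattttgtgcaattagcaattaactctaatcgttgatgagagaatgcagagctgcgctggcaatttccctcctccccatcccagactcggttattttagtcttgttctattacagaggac
Sorl1: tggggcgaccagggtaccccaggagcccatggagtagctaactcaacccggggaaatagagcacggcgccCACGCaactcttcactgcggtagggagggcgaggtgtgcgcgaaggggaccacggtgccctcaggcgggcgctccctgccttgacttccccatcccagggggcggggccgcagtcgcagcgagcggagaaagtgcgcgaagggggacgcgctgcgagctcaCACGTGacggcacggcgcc
RefSeq windows of 300 bases, from 250 before to 50 after a start site, were at hand for 6 of the 8 genes, 10 windows in all. Neither window of Vldlr held ACGTG or GCGTG on either strand. Of all 32851 windows, 19.6% held the first, 32.4% the second and 43.8% one or the other, so most windows held neither. The first window of Sorl1, the one printed in part, held CACGTG, beginning 19 bases before the start, and GCGTG once, and its second window held GCGTG at 2 positions. Mylip had GCGTG at 2 positions and Lrpap1 at 1, neither with ACGTG, and the single Lrp1 window held none. Of 3 Lrp8 windows, 1 held GCGTG at 2 positions and another at 1. A match is a description of letters, and its absence here covers only these windows.

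The Vldlr probe set of highest mean signal, 1434465_x_at, read 940.7, 670.3 and 1168.7 on the 3 hypoxia arrays and 182.3, 270.8 and 198.3 on the 3 normoxia arrays. The lowest hypoxia value lay 2.48-fold above the highest normoxia value. Hypoxia averaged 927 ± 250 and normoxia 217 ± 47.2 (here and throughout, ± is the SD of n = 3 arrays). Its log2 fold change was 2.08 (SE 0.22, limma adjusted p = 0.0025), a 4.22-fold rise with a 95% interval of 2.99 to 5.96. The call held in each of the 6 fits with 1 array left out (limma adjusted p 0.00382 to 0.0376). It was lost when limma's variance was not allowed to follow mean signal (adjusted p = 0.0673, the highest across the alternatives, which began at 0.000211). Probes of an x_at set may also match other transcripts. Without x_at and s_at sets, Vldlr was represented by 1417900_a_at and passed (adjusted p = 0.0312).

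That second probe set, 1417900_a_at, read 327.5, 184.7 and 248.9 in hypoxia and 24.8, 80.3 and 63.1 in normoxia. Normoxia replicate 1 was the lowest array by a wide margin, and the groups did not overlap. The means were 254 ± 71.5 and 56.1 ± 28.4, a log2 fold change of 2.30 with an SE of 0.40 (adjusted p = 0.0368). Without normoxia replicate 1 the log2 fold change was 1.79, the lowest across the alternatives, and the call held (limma adjusted p = 0.0129). Leaving out any one of hypoxia replicate 1, 2 or 3 ended the call (adjusted p = 0.225, 0.0759 and 0.0645), as did leaving out normoxia replicate 3 (0.102). Adjusted p spanned 0.00535 to 0.225 across the alternatives. It was lost too with the replicate number as a block (adjusted p = 0.0579), with robust eBayes (0.0566) and with eBayes without trend (0.188).

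The third called probe set, 1435893_at, read 155.6, 92.3 and 112.9 in hypoxia and 26.7, 45.8 and 28.7 in normoxia. Hypoxia replicate 2 was again the lowest of its group and normoxia replicate 2 the highest of the other. The log2 fold change was 1.84 (SE 0.28, adjusted p = 0.0186). Leaving out hypoxia replicate 1 ended the call (adjusted p = 0.141), as did leaving out normoxia replicate 3 (0.1002) and eBayes without trend (0.112), and adjusted p spanned 0.00365 to 0.141 across the alternatives. Without hypoxia replicate 1, and likewise without normoxia replicate 3, 1434465_x_at was the 1 member probe set still called. With eBayes without trend no member probe set was called.

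The remaining 3 Vldlr probe sets had values of the same direction without a call. 1438258_at read 145.1, 85.8 and 56.2 in hypoxia and 16.9, 38.5 and 28.5 in normoxia, a log2 fold change of 1.75 with an SE of 0.39 (adjusted p = 0.104). 1442169_at read 58.8, 42.5 and 36.3 against 11.7, 18.5 and 16.3, a log2 fold change of 1.56 with an SE of 0.33 (adjusted p = 0.0862). The groups were separated in each. 1438258_at passed without hypoxia replicate 3 (adjusted p = 0.0476, and 0.0208 to 0.376 across the alternatives). After each array was centred on its median, 1438258_at (adjusted p = 0.0394) and 1442169_at (0.0492) both passed, and the count of member probe sets called rose to 5. The dimmest, 1451156_s_at, read 39.1, 19 and 16.3 in hypoxia and 1.3, 3.4 and 6.4 in normoxia and was not tested, as its geometric mean of 8.37 was under the filter. In the fit without a filter its log2 fold change was 2.91 (SE 0.79, adjusted p = 0.276).

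Across the 6 Vldlr probe sets, hypoxia lay above normoxia without overlap in 6, where this held for 5.68% of all 45037 probe sets. They read 1 gene in the same RNA and are not replicates of each other. The arrays also kept an order within the groups: normoxia replicate 1 was the lowest array in all 6 probe sets, and hypoxia replicate 1 was the highest of its group in 5, the exception being 1434465_x_at. Normoxia replicate 2 was the highest of its group in 5, the exception being 1451156_s_at. After group means were removed, the 10 pairs among the 5 tested probe sets correlated with a Pearson r of 0.15 to 0.99 (median 0.75, 6 arrays each, a description of probe sets that share their RNA). The mean of the 5 tested probe sets gave a log2 fold change of 1.91 (limma adjusted p = 0.0158).

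**Figure D1:**
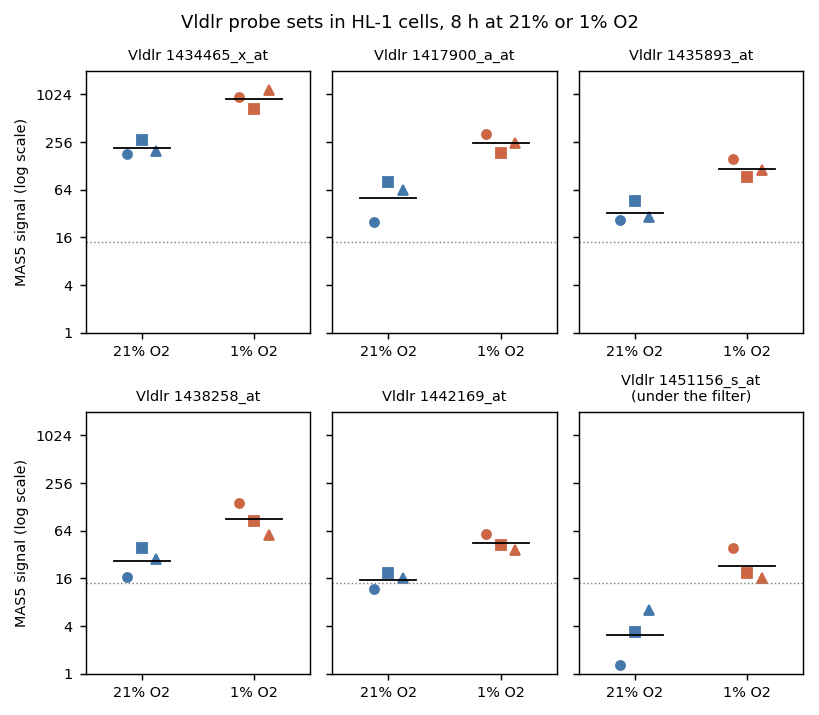
MAS5 signal (log scale) of the 6 Vldlr probe sets on the 3 arrays at 21% oxygen (blue) and the 3 at 1% oxygen (orange); circles, squares and triangles are replicates 1, 2 and 3, black lines are geometric means and the dotted line is the filter at 14.1. Every hypoxia array lies above every normoxia array in all 6 panels, and the circle of normoxia replicate 1 is the lowest point in each.

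The nearest relative of VLDLR in structure, the apolipoprotein E receptor 2 encoded by Lrp8, gave low signals. Its probe set 1440882_at read 21.3, 31.6 and 34.3 in hypoxia and 35.9, 27 and 31.7 in normoxia. The groups overlapped, with a log2 difference of -0.14 (SE 0.30, adjusted p = 0.901) and a 95% interval in fold of 0.572 to 1.44. A second probe set, 1421459_a_at, lay at the filter, with a geometric mean of 14.2 and a log2 difference of -0.37 (SE 0.54, adjusted p = 0.838). The third, 1442347_at, was under the filter, between 0.7 and 8.4 on the 6 arrays.

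Lrp1, a large endocytic receptor of lipoprotein remnants and protease complexes, had 2 probe sets and both were under the filter. 1448655_at read 9.5, 1.1 and 8.2 in hypoxia and 15.9, 13.4 and 12.7 in normoxia. All hypoxia arrays were below all normoxia arrays, an arrangement found in 7.65% of all probe sets, and 15.9 was the 1 value above the filter. Without a filter the log2 fold change was -1.66 (SE 0.90, adjusted p = 0.691). 1442849_at stayed between 0.5 and 6.6 on all 6 arrays. These signals do not show whether HL-1 cells lack the transcript, since a probe set can also bind poorly.

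Sorl1 encodes a sorting receptor that shares ligand-binding repeats with the family and carries cargo between the Golgi and endosomes. Its probe set of highest mean signal, 1426258_at, read 425.2, 616 and 749.7 in hypoxia and 698.2, 488.3 and 609.7 in normoxia. The hypoxia arrays spanned the whole normoxia range, and the means of 597 ± 163 and 599 ± 105 gave a log2 difference of -0.03 (SE 0.21, adjusted p = 0.973). The 95% interval in fold was 0.703 to 1.37. 1453003_at had means of 114 ± 8.00 and 137 ± 46.7 and 1460390_at of 65.4 ± 14.6 and 80.6 ± 17.9, with log2 fold changes of -0.21 and -0.30 (adjusted p = 0.789 and 0.68). Groups overlapped in all 3.

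The coreceptors of WNT signalling did not pass either. For Lrp6, 1428500_at read 122.8, 101.9 and 104.1 in hypoxia and 131.8, 103.2 and 122.2 in normoxia. The means of 110 ± 11.5 and 119 ± 14.6 overlapped, with a log2 difference of -0.12 (SE 0.18, adjusted p = 0.846) and a 95% interval in fold of 0.700 to 1.21. The other Lrp6 probe set, 1451022_at, had the opposite sign, 0.45 (SE 0.35, adjusted p = 0.672), from 29.1 ± 8.66 to 39.9 ± 12.4. Lrp5 had 1 probe set, 1449299_at, which read 20.3, 29.6 and 5.7 in hypoxia and 3.4, 48 and 21.2 in normoxia. This was the widest spread of any tested member, and its 95% interval in fold, 0.231 to 4.30, leaves a change the size of that of Vldlr within it. The log2 fold change was -0.0049 (SE 0.94, adjusted p = 0.999).

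Lrpap1 encodes RAP, the endoplasmic reticulum chaperone that keeps newly made receptors from binding ligand too early. Its 4 probe sets were all tested. 1436609_a_at read 565.4, 686.5 and 547.6 in hypoxia and 572.6, 649.7 and 700.4 in normoxia. The groups interleaved, with means of 600 ± 75.6 and 641 ± 64.4 and a log2 difference of -0.10 (SE 0.14, adjusted p = 0.835). Its 95% interval in fold, 0.750 to 1.16, was the narrowest on the log scale among the members. The other 3 probe sets had log2 fold changes of -0.03, -0.03 and 0.0034 (adjusted p = 0.965, 0.968 and 0.997).

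Mylip, whose transcription is driven by the sterol-sensing liver X receptors, had 1 probe set, 1424988_at. It read 61.1, 61.8 and 62.6 in hypoxia and 58.8, 70.2 and 47.5 in normoxia. The 3 hypoxia arrays were nearly equal and lay inside the normoxia range. Means of 61.8 ± 0.751 and 58.8 ± 11.3 gave a log2 difference of 0.09 (SE 0.21, adjusted p = 0.91), with a 95% interval in fold of 0.766 to 1.48.

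**Figure D2:**
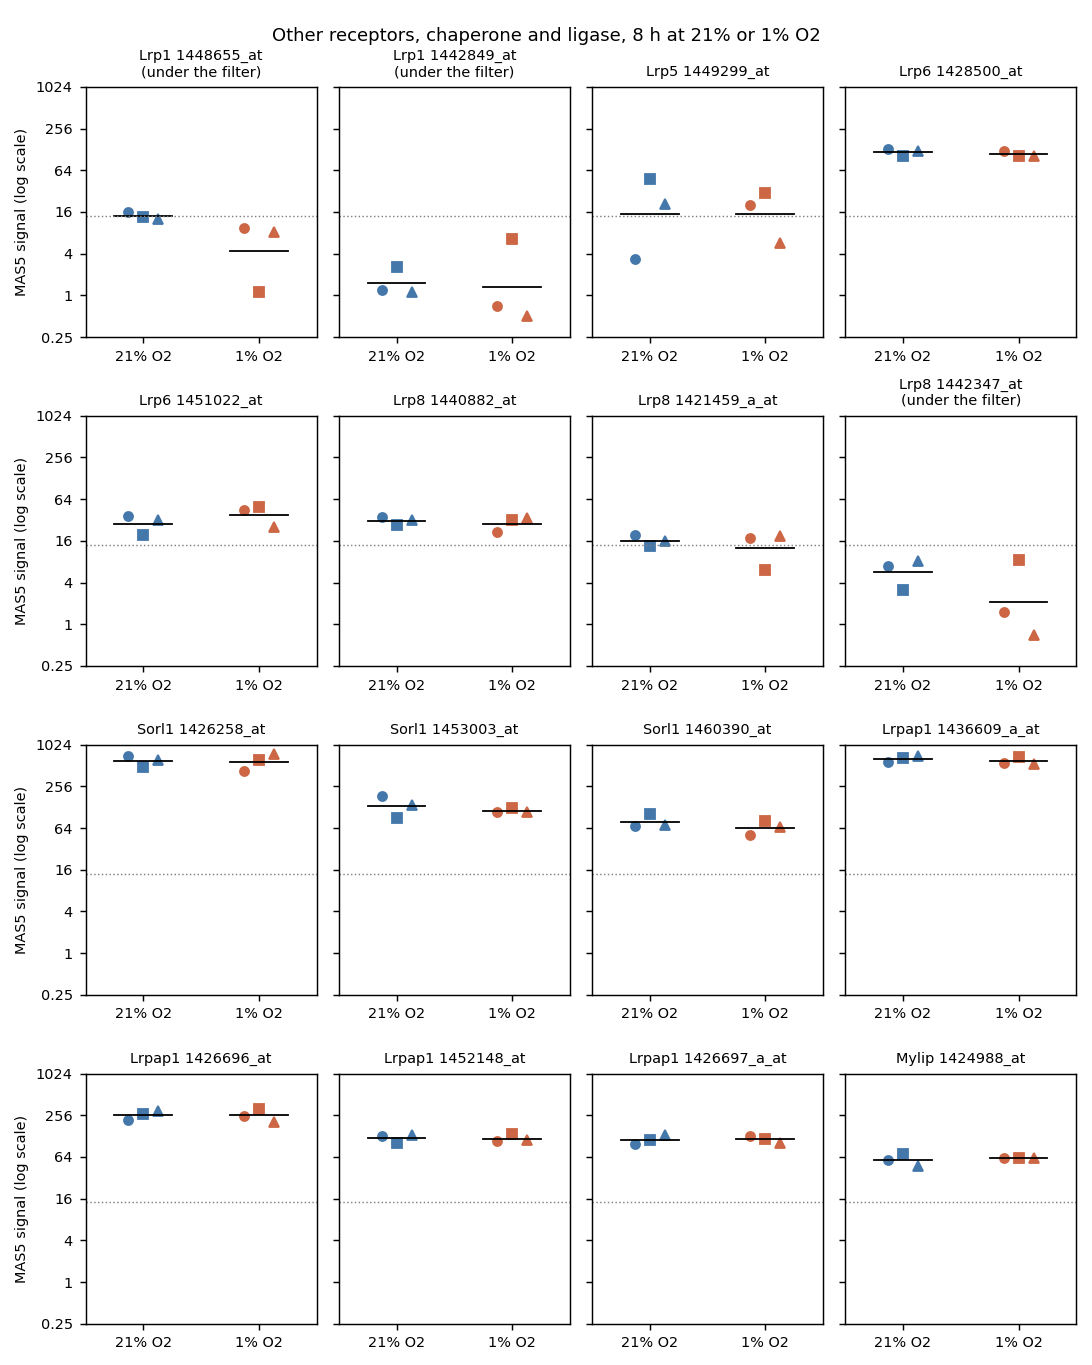
MAS5 signal (log scale) of the 16 probe sets of the other 7 genes, drawn as for Vldlr with blue for 21% oxygen, orange for 1% oxygen, symbols for replicates 1 to 3, lines for geometric means and a dotted line at the filter of 14.1. The groups overlap in every panel but Lrp1 1448655_at, whose points lie at or under the dotted line or just above it.

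Among the 13 tested probe sets of these genes, 3 had a log2 fold change above 0 and 10 below, with a median of -0.03; the median over all 22518 probe sets tested was -0.04. None had an unadjusted p under 0.05. The signs are not firm. Centring each array on its median raised all log2 fold changes by 0.11 and turned the sign of 5 of these 13. The interval of each shows what size of change could have been missed. For 12 of the 13 the upper bound in fold lay under 2.99, the lower bound for Vldlr 1434465_x_at, and Lrp5 was the exception. The other tested Vldlr probe sets had smaller lower bounds, from 1.77 to 2.66. The upper bounds of Lrp6 1451022_at, 2.36, and of Lrp8 1421459_a_at, 1.785, lay within that range.

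**Figure D3:**
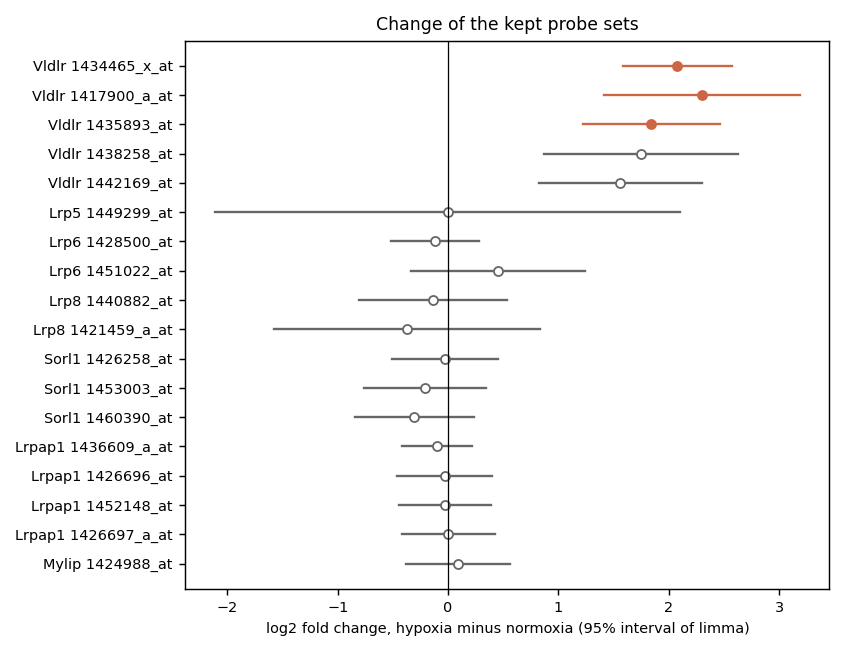
Log2 fold change, hypoxia minus normoxia, of the 18 tested member probe sets (points) with limma's 95% interval (lines); filled orange points were called at an adjusted p under 0.05 and open grey points were not. The 5 Vldlr probe sets lie between 1.56 and 2.30, and all others lie between -0.37 and 0.45 with intervals that cross 0.

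Whether Vldlr changed by another amount than a relative was tested on the log2 signal of 1434465_x_at minus that of the other gene's tested probe set of highest mean signal, array by array, with the exact permutation test of 3 against 3. This test cannot give a p below 0.1, so none of the 6 comparisons could pass at 0.05. The difference in log2 fold change was 2.20 for Lrp6 (SE 0.36), 2.22 for Lrp8 (SE 0.42), 2.11 for Sorl1 (SE 0.44), 2.18 for Lrpap1 (SE 0.37) and 1.99 for Mylip (SE 0.26). In these 5 the hypoxia and normoxia arrays did not overlap (two-sided exact p = 0.1 each, 0.12 adjusted over the 6). For Lrp5 the difference was 2.08 (SE 1.36) with overlap (exact p = 0.3). Lrp1 had no tested probe set.

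The genes whose pattern over the 6 arrays lay nearest to that of Vldlr were sought by the root mean square difference between log2 signals, each centred on its own mean, among 11331 other genes. The nearest was Fam162a, a mitochondrial protein, at 0.21 log2 units (Pearson r 0.98, here a description over 6 arrays). Slc2a1, the glucose transporter GLUT1, followed at 0.24 and Higd1a, another mitochondrial protein, at 0.30. Tnfaip3, the ubiquitin-editing enzyme A20, stood at 0.31 and the nuclear receptor Rora at 0.32. Their log2 fold changes were 2.13 for Fam162a, 2.08 for Slc2a1, 1.65 for Higd1a, 1.83 for Tnfaip3 and 1.63 for Rora. All but Tnfaip3 (limma adjusted p = 0.0533) passed. The measure counts the step between the groups as well as the order of the arrays within them. These genes were chosen on the same 6 arrays for likeness to Vldlr. Their fold changes, r and adjusted p follow largely from that choice and are no separate support.

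**Figure D4:**
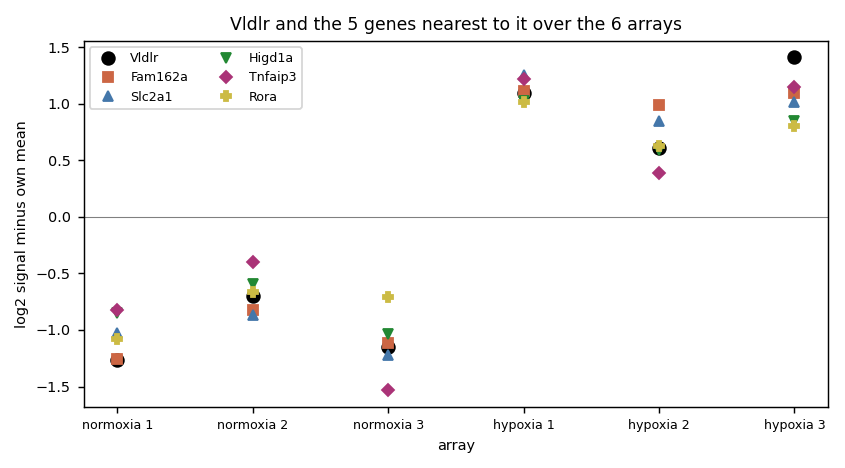
Log2 signal minus the gene's own mean on each of the 6 arrays for Vldlr (black circles, 1434465_x_at) and the 5 nearest genes. All 6 genes lie below 0 on the 3 normoxia arrays and above 0 on the 3 hypoxia arrays, and Vldlr is the highest of them on hypoxia replicate 3.

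Genes that act beside these receptors were described in 5 lists of 147 genes, of which 133 had a named probe set and 92 were tested. None was called (limma, 0 of 92, where 0.75% of all genes tested were called), and 13, or 14.1%, had an unadjusted p under 0.05, against 12.4% of all genes tested. Of 11 other receptors of the family and related scavengers, 4 lay above 0 and 7 below, with a median log2 fold change of -0.20. Scarb1, the receptor of high density lipoprotein, had a log2 fold change of -0.01 (602 ± 113 against 603 ± 60.6). Among 9 tested ligands, lipases and secreted partners, 6 lay above 0 with a median of 0.38, the list farthest from the median of all genes (-0.04), and 4 had an unadjusted p under 0.05, all higher. Lpl, the lipase that frees fatty acids from the particles VLDLR binds, was not among them (log2 fold change 0.03, SE 0.16, adjusted p = 0.961; 2803 ± 494 against 2749 ± 469).

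The other 3 lists had medians close to that of all genes. Adaptors, chaperones and trafficking genes had 10 of 19 above 0 and a median of 0.0075; Vps29, a retromer subunit, stood at 0.25 (adjusted p = 0.551). Regulators of receptor transcription and turnover had 9 of 25 above 0 and a median of -0.09, and Ube2d3, a ubiquitin-conjugating enzyme, stood at 0.04 (adjusted p = 0.927). In the list of WNT signalling at LRP5 and LRP6, 10 of 28 lay above 0, with a median of -0.07, and Ctnnb1, which encodes beta-catenin, was at 0.24 (adjusted p = 0.608). Dkk3, a secreted protein of the Dickkopf family and named after its values were seen, had 1033 ± 77.0 in hypoxia and 1529 ± 180 in normoxia, a log2 difference of -0.56 (SE 0.12, adjusted p = 0.101).

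**Figure D5:**
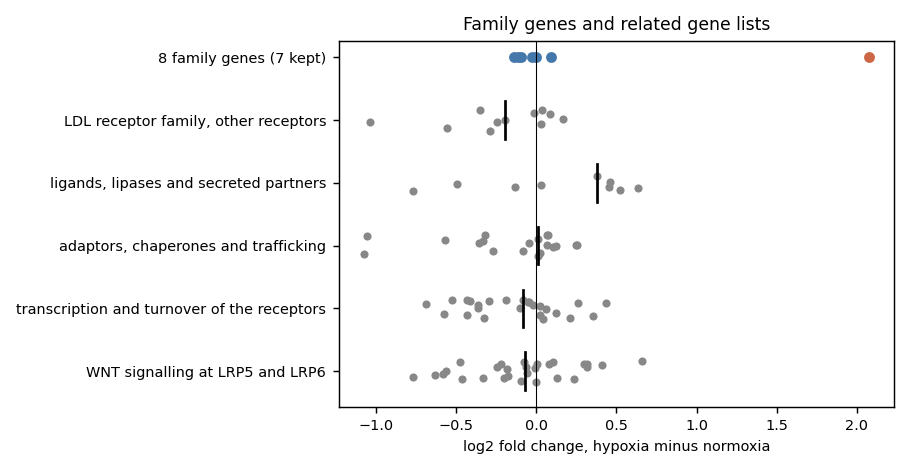
Log2 fold change, hypoxia minus normoxia, of the 7 family genes with a tested probe set (top line; orange for called, blue for not called) and of the tested genes of 5 related lists (grey points, spread vertically for legibility, with a black bar at each median). Vldlr stands alone at 2.08, and the list medians lie between -0.20 and 0.38.

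The arrays had median signals of 15.0 to 19.0. All 14 atrial and general cardiomyocyte markers were tested, with Myl7, the atrial regulatory light chain, at 8687 ± 852 in hypoxia and 8653 ± 636 in normoxia. None was called (limma), where 0.75% of all genes tested were called. Of the 14, 5 had an unadjusted p under 0.05, against 12.4% of all genes tested, and were named after their values were seen. Their log2 fold changes were 0.76 for Nppa and 0.88 for Sln (adjusted p = 0.24 and 0.231), and -0.37 for Tnni3, -0.68 for Actn2 and -0.48 for Mef2c (adjusted p = 0.113, 0.322 and 0.281). Of 35 markers of ventricular, fibroblast, endothelial, macrophage, adipocyte and neuronal cells, 13 were tested and 0 called (limma). Of the 13, 2 had an unadjusted p under 0.05 and were named after their values were seen. The same shares of all genes, 0.75% and 12.4%, apply to these counts. Cd68, a lysosomal protein of macrophages, read 44.0 ± 4.97 in hypoxia and 20.2 ± 4.56 in normoxia (adjusted p = 0.157), and Myl3, the ventricular light chain, 81.0 ± 10.8 and 142 ± 28.6 (adjusted p = 0.17). Their part in the rise of Vldlr was not tested. The summed signal of the 7 macrophage markers was 99.1 to 138 in hypoxia and 86.5 to 136 in normoxia, and that of the 8 endothelial markers 159 to 254 and 177 to 245. In bulk RNA, fewer cells of a type and less RNA per cell cannot be told apart.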

How the data were processed

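Total RNA of 6 HL-1 samples, 3 per oxygen level, was measured on 1 array each. The authors deposited 1 linear intensity per probe set and array, made with MAS5 per the submitters' processing notes; the version and scaling target were not stated there, and detection calls were not used. MAS5 summarises each array alone and is noisy near background. The mean after trimming 2% at each end was 99.5 on every array, so no scaling was added.

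The 10 values of 0 were raised to 0.1, the lowest positive signal, before log2 was taken. Probe sets with a mean log2 signal above the median were fitted with limma 3.58.1 in R 4.3.3 (lmFit, eBayes with trend, two-sided, no covariates). The procedure was first tested on data simulated from limma's own fitted variances, which cannot check the choice of a trend. Fold changes are hypoxia over normoxia of geometric means. Symbols came from a platform annotation; 34945 probe sets had 1 symbol, 932 several and 9160 none. Promoter windows matched by symbol came from RefSeq. The array values carry no genome build.

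Named were every member probe set, the called genes and the brightest gene not called of each list, and the 5 genes nearest to Vldlr; others are said to have been named after their values were seen. The members and lists were chosen with earlier results of these data known. Alternatives were 3 normalizations, an offset of 2.9, other filters, variance models, array weights, a replicate block, other summaries of a gene and each array left out. The number of arrays limits the precision.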

Additional observations from a re-analysis of the deposited data

How the results depend on the processing

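Over the settings in which each was tested, all 5 tested Vldlr probe sets kept a log2 fold change of at least 1.37, and 1434465_x_at kept its call in all but eBayes without trend (2.08, adjusted p = 0.0673). Member probe sets called numbered 5 after median centring, 5 with array weights and 0 without trend, 2 with robust eBayes, and 1 to 3 with 1 array left out. All probe sets called numbered 437 with array weights and 18 without trend, against 137, and 39 to 200 with 1 array left out. Array weights called 1 pathway gene, Dkk3. The labels do not say whether equal replicate numbers share a culture or day. Deviations of same-numbered arrays from their group means had r of -0.08, 0.21 and -0.14, highest for the own number in 1 of 3. With 3 arrays per group these values cannot settle whether the arrays were paired. With the replicate block 105 probe sets were called, 2 of them members. The 6 differences between Vldlr and another member kept their sign, with the smallest at 1.20 for Lrp5.

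Signs of uncalled members turned as follows, and the cause was not tested. Lrp5 1449299_at was 0.094 after quantile normalization, 0.106 after median centring and 0.114 after cyclic loess, and Lrpap1 1452148_at 0.033, 0.0834 and 0.017. Median centring also gave 0.0834 for Sorl1 1426258_at, 0.079 for Lrpap1 1426696_at and 0.013 for Lrpap1 1436609_a_at. Array weights gave -0.045 for Lrpap1 1426697_a_at, and the mean of probe sets gave 0.17 for Lrp6. With 1 array left out, the ranges were -1.08 to 0.70 for Lrp5, -0.50 to 0.16 and -0.27 to 0.072 for Lrp8 1421459_a_at and 1440882_at, -0.21 to 0.20 and -0.49 to 0.029 for Sorl1 1426258_at and 1453003_at, and -0.055 to 0.23 for Mylip. For Lrpap1 they were -0.19 to 0.12 (1426696_at), -0.11 to 0.12 (1426697_a_at) and -0.14 to 0.047 (1452148_at). Probe sets under a filter could not be given a value there. The ranges of Lrp5 1449299_at and Lrp8 1421459_a_at therefore rest on 2 of the 6 fits with 1 array left out. Signals near 14.1 and below limit Lrp1, Lrp5 and Lrp8.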
